A study of Homo sapiens with 2 samples.

Results

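NRF2 is a transcription factor that switches on genes against oxidative and electrophilic stress, and 41 genes of its pathway were followed in A549 cells with and without knockdown of PSPC1. They were named by symbol: the regulators of NRF2, and its textbook targets in glutathione metabolism, the thioredoxin system, NADPH supply, quinone and carbonyl reduction, and conjugation and export. All 41 were found among 25464 genes with transcripts in both deposited files. All 41 also reached 1 FPKM in whichever library was higher, the filter that 11509 genes passed. FPKM counts sequenced fragments in proportion to transcript length and library size, and a gene's level here is the sum over its transcripts.

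A549 is a human lung adenocarcinoma line, grown here in medium with serum, penicillin and streptomycin. The control library (shLacZ) is of cells carrying an shRNA to LacZ, which is not a human gene, and the knockdown library (shPSPC1) of cells carrying one to PSPC1, which encodes an RNA-binding protein of paraspeckles. With 1 library for each, there is no replicate check of any difference and no test or p-value. The sources used here do not say how many shRNA sequences or clones there were. Values after ± are half-widths of the 95% intervals that the authors deposited and cover error within a library only.

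In most cells the protein KEAP1 holds NRF2 and, with the scaffold CUL3, marks it for breakdown. Electrophiles disable KEAP1, and NRF2 then pairs with a small MAF protein on antioxidant response elements in the DNA. The repressor BACH1 competes for the same elements. A549 cells carry a mutant KEAP1 and are known for constantly active NRF2, so both libraries share this state. The messages measured here do not report NRF2 protein, which is set mainly by breakdown.

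The labels were checked first. PSPC1 stood at 31.5 ± 1.25 FPKM in the control and 17.7 ± 0.858 with knockdown, a log2 ratio of -0.79. The epithelial keratin genes KRT18 (1450 and 1184 FPKM, control and knockdown), KRT7 and KRT8 were abundant, CDKN2A, which A549 cells have lost, was listed at 0 in both, and none of 11 leukocyte, fibroblast and endothelial markers reached 1 FPKM, the highest being ITGAM at 0.851. All 5 epithelial markers were lower in the knockdown library, with a median log2 ratio of -0.31 and a sum of 3492 FPKM against 2789, and their part in the results below was not tested. Depth was estimated at 56200000 fragments (control) and 57100000 fragments (knockdown), at which a transcript of 2000 bases at 1 FPKM has about 103 and 105 fragments.

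The core letters of the antioxidant response element, TGACNNNGC, were searched on both strands of RefSeq promoter windows on GRCh38.p14 that run from 250 bases before to 50 bases after a gene's start. Windows were found for 33 of the 41 members, 49 windows in all, and not for ABCC1, ABCC3, CBR3, GSR, GSS, PRDX1, PRDX6 and TRIM16L. Of these genes 13 (39.4%) had the letters in at least 1 window, against 19.5% of 9264 genes that passed the filter and have a window. By window the shares were 28.6% for the members, 14.4% for the genes past the filter and 13.3% of all 35116 windows. The related letters TGACTCA, which overlap the core when GC follows at the right place, stood in 4 of the 33 (12.1%), against 4.54% of the genes past the filter. A match is a description of letters and not a site, and windows were not matched to the starts of the transcripts measured here. The stretches below show members from several classes, with the matching letters in capitals and 20 bases on either side, each read on the strand on which the match reads forward. They are ordered from the highest log2 ratio between the libraries to the lowest. The stretch of OSGIN1 holds TGACTCA, and the others hold the core.
OSGIN1 (chr16:83953123-83953169, plus strand): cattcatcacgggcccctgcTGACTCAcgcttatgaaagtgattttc
ABCB6 (chr2:219219082-219219130, minus strand): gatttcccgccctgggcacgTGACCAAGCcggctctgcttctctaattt
GCLM (chr1:93909436-93909484, plus strand): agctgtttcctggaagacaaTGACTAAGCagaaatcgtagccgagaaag
IDH1 (chr2:208255186-208255234, minus strand): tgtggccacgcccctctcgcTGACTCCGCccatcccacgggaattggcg
GPX2 (chr14:64942839-64942887, plus strand): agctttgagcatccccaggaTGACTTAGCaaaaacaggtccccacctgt
ME1 (chr6:83431160-83431208, minus strand): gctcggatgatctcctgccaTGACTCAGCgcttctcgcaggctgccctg
PGD (chr1:10398843-10398891, minus strand): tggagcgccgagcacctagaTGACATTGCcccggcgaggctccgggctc
GSTP1 (chr11:67583726-67583774, plus strand): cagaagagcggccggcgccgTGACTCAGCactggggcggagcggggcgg
KEAP1 (chr19:10502774-10502822, plus strand): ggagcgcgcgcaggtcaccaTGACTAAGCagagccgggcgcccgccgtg
CBR1 (chr21:36069845-36069893, minus strand): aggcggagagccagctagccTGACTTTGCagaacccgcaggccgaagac
TXNRD1 (chr12:104215660-104215708, plus strand): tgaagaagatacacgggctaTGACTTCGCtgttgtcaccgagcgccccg

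GSTP1 and ME1 hold the same 9 letters, and GCLM and KEAP1 share another 9. The stretch of TXNRD1 lies in the earlier of its windows with the core. Its annotated transcript with the earliest start was listed at 0 FPKM in both libraries. A later window of TXNRD1 also holds the core, as TGACAAAGC at chr12:104286910-104286958 (minus strand). OSGIN1, above 1.5-fold by summed FPKM, holds TGACTCA and not the core. The genes shown with the core run from ABCB6, with a log2 ratio of 0.56, to CBR1 and TXNRD1, at -0.06 and -0.22. Genes with the core thus stood on both sides of 0. The window of NQO1, the gene with the steadiest rise below, held neither motif.

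These genes were abundant as a group in both libraries. Their median level was 59.7 FPKM in the control and 74.3 with knockdown, against 8.39 and 8.33 over the genes past the filter. Of the members 14 (34.1%) reached 100 FPKM in the control and 13 (31.7%) with knockdown, against 5.04% and 4.87% of the genes past the filter. PRDX1, a peroxiredoxin that breaks down hydrogen peroxide, was the most abundant member, with rank 89 in the control and 47 with knockdown. GPX3, a secreted glutathione peroxidase, was the least abundant, at 1.69 and 2.87 FPKM. In bulk RNA, fewer cells with a message and less message per cell cannot be told apart.

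**Figure D1:**
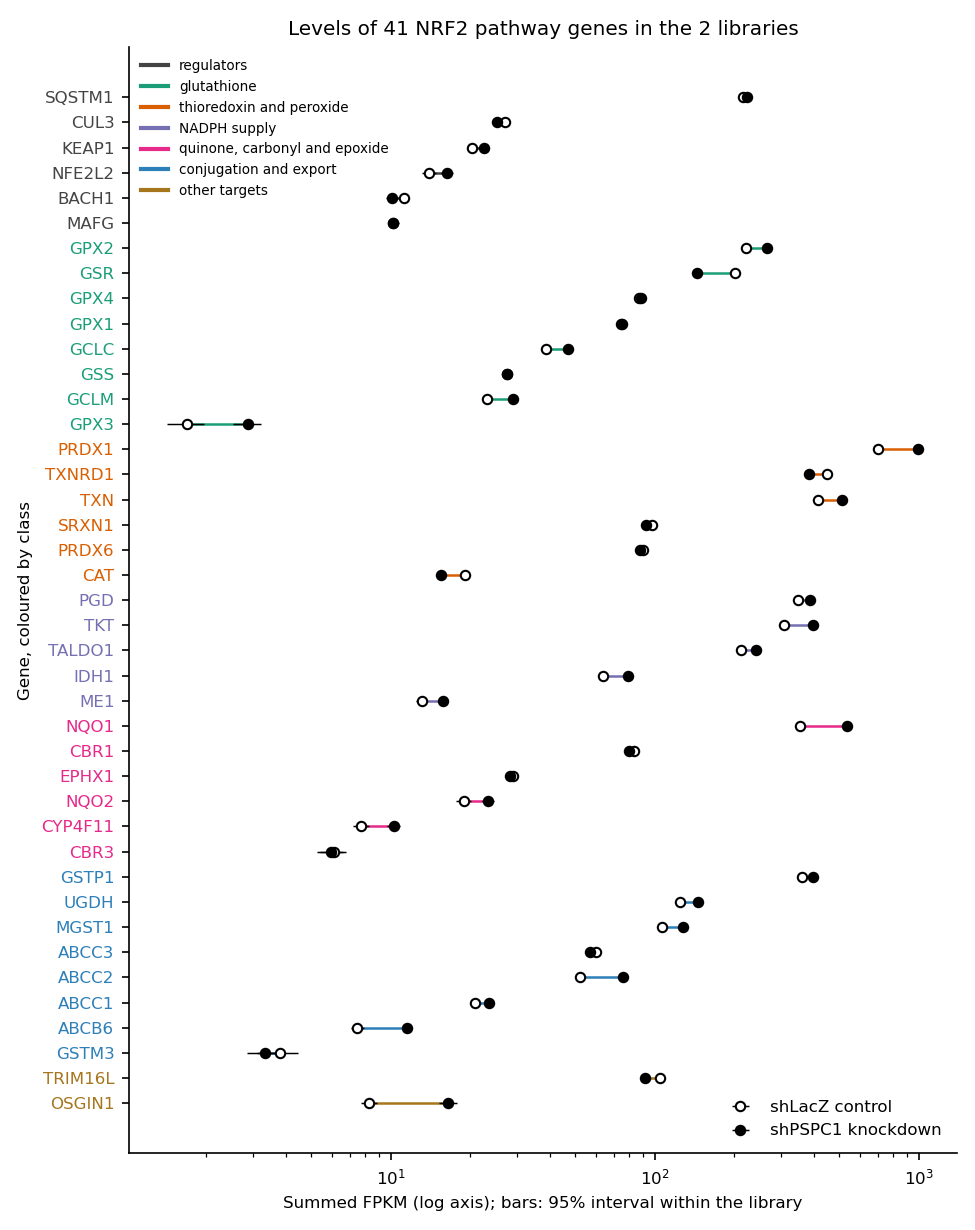
Summed FPKM of the 41 genes on a log axis, with open points for the control and filled points for the knockdown library, each with its 95% interval, and gene names coloured by class. PRDX1 lies farthest to the right, at 700 and 994 FPKM, and all 5 genes of NADPH supply have the filled point to the right of the open one.

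More members lay above 0 than below it, and few moved far. The members were chosen with earlier results of these data known, so their contrast with all genes is not independent of the data. The median log2 ratio, knockdown over control with a pseudocount of 1 FPKM, was 0.15 over the 41 members, against 0.01 over all genes past the filter. It was above 0 for 25 of them (61%, against 50.9% of all genes). Intervals lay apart with the knockdown library higher for 24 members (58.5%), against 25.9% of all genes past the filter, and with it lower for 7 (17.1%), against 25.7%. Abundant genes have narrow intervals, so the same was counted among genes at 10 FPKM or more in both libraries, where 20 of 35 members were higher (57.1%, against 29.7% of 4827 genes) and 7 lower (20%, against 29.2%). With a fixed sum of FPKM without mitochondrial genes, which moved the median of all genes to 0.09, 34 members in place of 25 had a log2 ratio above 0, as did 64.5% of all genes. Under it 25 members were higher and 4 lower with intervals apart, against 38.1% and 18.3% of all genes. That scaling adds about 0.10 to each log2 ratio, so ratios a little below 0 turn above it, such as those of ABCC3 and SRXN1 (-0.07 each as reported, and 0.02 under it).

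A rule of size asked for a ratio of at least 1.5 on the (FPKM + 1) scale, 1 FPKM in the higher library and intervals apart. Past it, 2 of 41 members (4.88%) were higher, NQO1 and OSGIN1, against 4.32% of all genes, and 0 were lower, against 5.4%. The share of members past 1.5-fold was thus near that of all genes. No member reached 2-fold, which 1.66% of genes passed as higher and 1.94% as lower. Just short of 1.5-fold were ABCB6, ABCC2, GPX3 and PRDX1, with log2 ratios of 0.56, 0.54, 0.53 and 0.51.

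**Figure D2:**
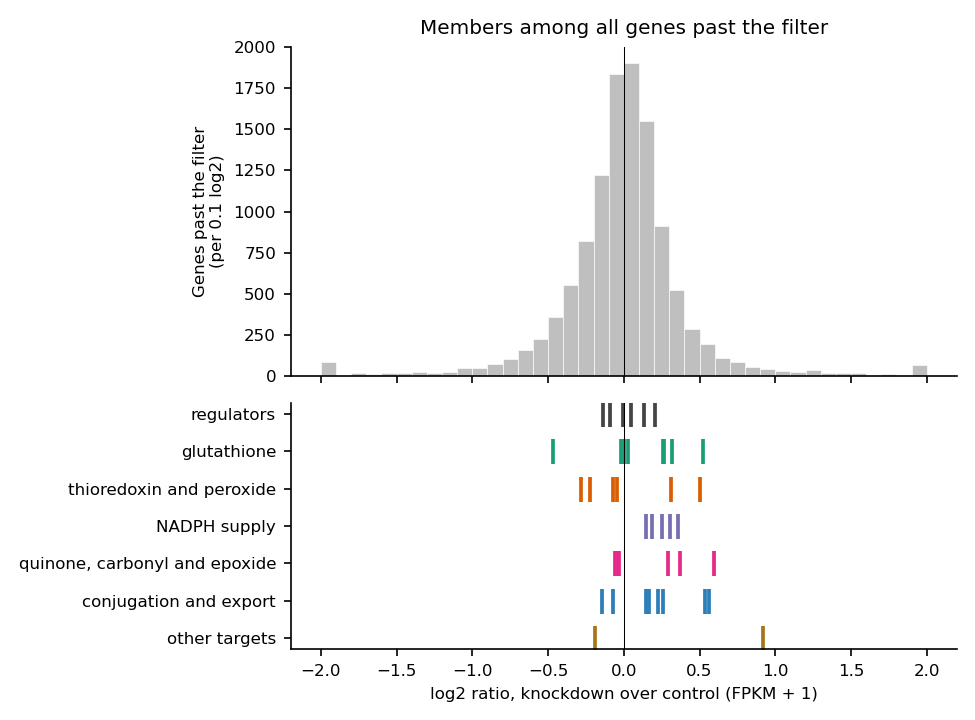
Upper panel: number of genes past the filter per 0.1 of log2 ratio, knockdown over control, with values beyond 2 in the end bars. Lower panel: 1 mark for each member on the same axis, by class. Genes of NADPH supply lie between 0.15 and 0.36, and the regulators between -0.14 and 0.21.

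A second measure was used beside summed FPKM, because the authors' assembly gave some genes different transcripts in the 2 files. It estimates the fragments of a gene from FPKM, transcript length and depth and divides them by the length of the longest annotated transcript. By this measure the members' median log2 ratio was 0.17, and 28 were above 0 (68.3%, against 51% of all genes). Past 1.5-fold, GCLM and NQO1 were higher (background 3.32%) and 0 members lower (4.64%), and past 2-fold there were 0 (1.73% higher, 1.85% lower). Intervals lay apart for 24 higher (58.5%, against 24.6% of 11475 genes) and 5 lower (12.2%, against 24.6%). For 22 members the intervals lay apart with the knockdown library higher by both measures, and for 5 with it lower by both. No share over all genes is set beside these joint counts.

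**Figure D3:**
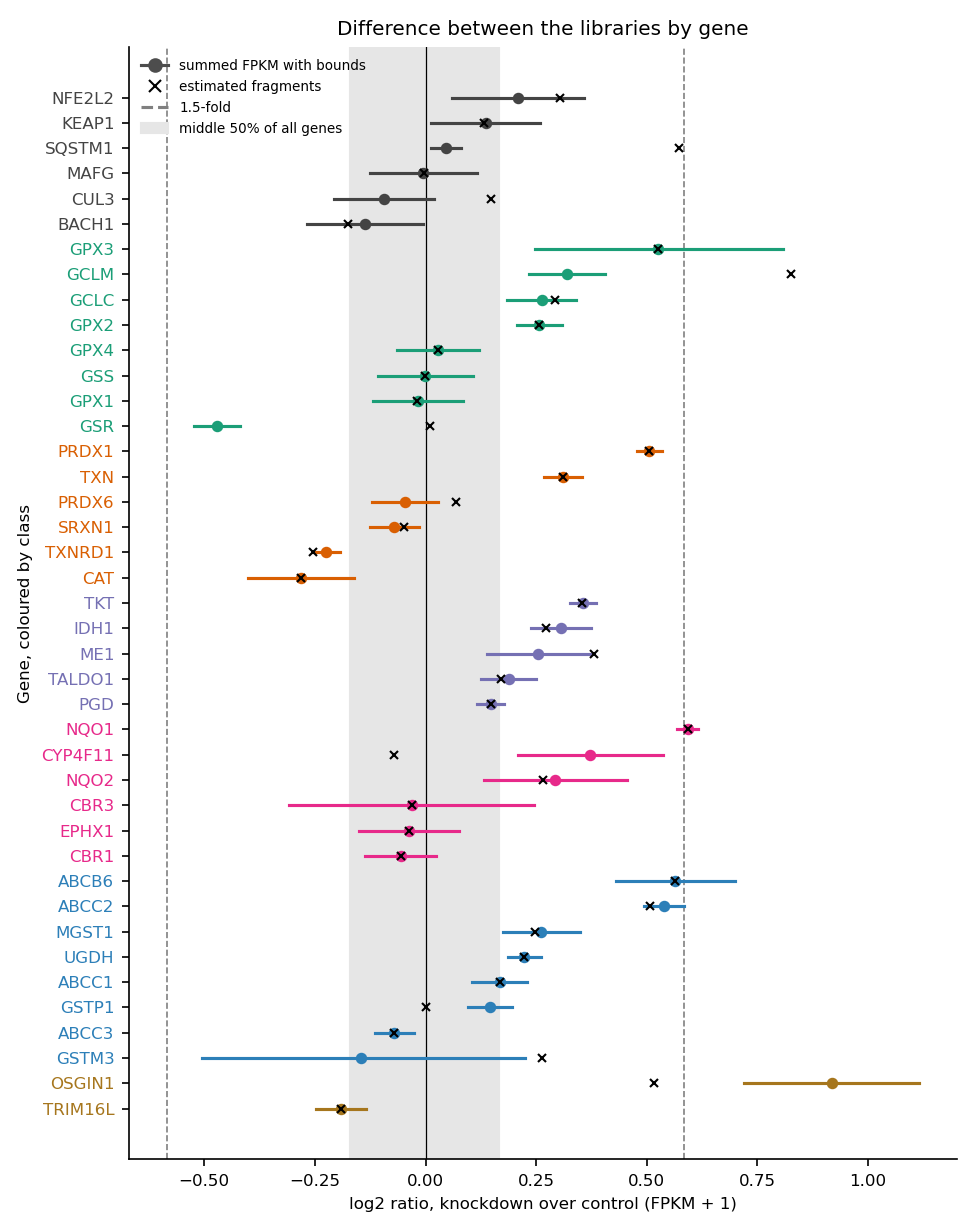
Log2 ratio of each member by summed FPKM (points, with bounds from both libraries' intervals) and by estimated fragments (crosses), by class, with dashed lines at 1.5-fold and a band over the middle 50% of all genes past the filter, from -0.17 to 0.17. NQO1 and OSGIN1 lie beyond the right dashed line by summed FPKM, and the cross leaves the bounds for GCLM, SQSTM1, GSR, CYP4F11 and OSGIN1 among others.

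Among the regulators no gene passed the rule of size, and the class median was 0.02 (0.14 by estimated fragments). NFE2L2, which encodes NRF2, stood at 14.0 ± 0.836 FPKM in the control and 16.3 ± 0.831 with knockdown (log2 ratio 0.21, bounds 0.06 and 0.36). KEAP1, the sensor that holds NRF2, stood at 20.4 ± 0.942 and 22.5 ± 0.974 FPKM (0.14, bounds 0.01 and 0.26). The intervals of both lay apart, with the knockdown library above, and the lower bound of each ratio was close to 0.

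BACH1, the repressor that competes for the same elements, stood at 11.2 ± 0.545 and 10.1 ± 0.512 FPKM (log2 ratio -0.14, bounds -0.27 and -0.01). MAFG, a small MAF partner of NRF2, stood at 10.2 ± 0.469 and 10.2 ± 0.471 FPKM (-0.01). CUL3, the ligase scaffold, stood at 27.0 ± 1.01 and 25.3 ± 1.11 FPKM with overlapping intervals, and its log2 ratio was -0.09 by summed FPKM and 0.15 by estimated fragments. SQSTM1 encodes p62, an autophagy receptor that binds KEAP1 and is also a target of NRF2. It was the most abundant gene of the class, at 216 ± 2.85 and 223 ± 2.39 FPKM (0.05).

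For SQSTM1 the measures differed. Its log2 ratio was 0.57 by estimated fragments, just short of 1.5-fold. In the control file the whole signal lay in an assembled transcript of 2060 bases that ends at 179264235 on chromosome 5, and in the knockdown file in the annotated transcript of 2903 bases with the same introns, which ends at 179265078. The density per base was thus close in the libraries, and the length over which it was counted was not.

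The transcripts of NFE2L2 begin at several first exons. Exon 2, 267 bases on chromosome 2 from 178098733 to 178098999, encodes the part of NRF2 that KEAP1 binds, and tumours can skip it. Of 5 transcripts in the control file and 4 in that of the knockdown, 0 have an intron that joins exon 3 to a point beyond exon 2. A pair of intron chains, each of 5 exons, were above 0 in both files. One stood at 5.13 FPKM (36.6% of the gene) in the control and 8.93 (54.7%) with knockdown, and the other at 5.87 and 7.39 FPKM. Another chain, at 2.99 FPKM, was present in the control file alone.

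KEAP1 has a pair of annotated transcripts that begin at different places. The shorter stood at 8.68 ± 0.635 FPKM in the control and 14.4 ± 0.754 with knockdown, and the longer at 11.7 and 8.11 FPKM. The shorter form thus held 42.6% of the gene's FPKM in the control and 63.9% with knockdown, a difference of 21.3 points, which is under the limit of 30 points set for a change in share.

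Both subunits of the enzyme that starts glutathione synthesis had intervals apart with the knockdown library above. GCLC, the catalytic subunit, stood at 38.8 ± 1.14 and 46.7 ± 1.21 FPKM (log2 ratio 0.26, and 0.29 by estimated fragments). The direction of GCLC turned with the transcripts counted: its annotated transcript alone stood at 25.7 and 19.5 FPKM (-0.38). GCLM, the modifier subunit, stood at 23.1 ± 0.752 and 29.1 ± 0.847 FPKM, a log2 ratio of 0.32. GSS, which adds glycine in the next step, did not follow them, at 27.4 FPKM in both libraries.

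GCLM was the one member with an assembled transcript that shares introns with another gene. In the knockdown file a transcript of 13296 bases and 13 exons, at 3.6 FPKM, joins GCLM to DNTTIP2. It raises the log2 ratio by estimated fragments to 0.82, and without it the ratio of GCLM was 0.14, from the annotated transcript at 23.1 and 25.5 FPKM.

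GSR, which returns oxidized glutathione to its reduced form with NADPH, had the lowest log2 ratio of all members by summed FPKM and one near 0 by estimated fragments. It stood at 200.3 ± 3.65 FPKM in the control and 144 ± 2.57 with knockdown, -0.47 against 0.01. A short assembled transcript of 1165 bases, at 99.7 FPKM, was present in the control file alone, and without the short one the annotated intron chain stood at 100.6 and 144 FPKM. Those values give a log2 ratio of 0.52, while the annotated transcript alone gives -0.77. The direction of GSR therefore turned with the transcripts counted.

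Of the glutathione peroxidases, GPX2, the epithelial form, was the most abundant, at 221 ± 4.12 and 265 ± 4.48 FPKM (log2 ratio 0.26). Its intervals lay apart. The widely expressed GPX1 (75.3 and 74.3 FPKM) and GPX4, which reduces lipid peroxides in membranes (86.8 and 88.5 FPKM), had log2 ratios of -0.02 and 0.03 and overlapping intervals. GPX3 rested on few fragments, 152 in the control and 262 with knockdown, and had a log2 ratio of 0.53, with 0.25 and 0.81 as its bounds.

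The thioredoxin and peroxide genes went in both directions. The class median was -0.06 by summed FPKM, 0.01 by estimated fragments and 0.04 under the scaling without mitochondrial genes. PRDX1 stood at 700 ± 7.64 FPKM in the control and 994 ± 9.05 with knockdown, a log2 ratio of 0.51 by summed FPKM and 0.50 by estimated fragments. TXN, thioredoxin, which passes electrons to the peroxiredoxins, stood at 413 ± 6.45 and 513 ± 7.15 FPKM (0.31 by both measures). Each had a single intron chain above 0, the same in both files, so the assembly did not enter these values.

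TXNRD1, the reductase that recharges thioredoxin with NADPH, went the other way, at 447 ± 4.57 and 382 ± 4.29 FPKM (log2 ratio -0.22, and -0.25 by estimated fragments). Its pair of annotated transcripts did so as well, one at 168 and 138 FPKM and the other at 70.5 and 58.7 FPKM. An assembled transcript of 15 exons held 46.7% of the gene in the control, and one of 14 exons held 48.6% in the knockdown library. CAT, catalase, had the lowest ratio of all members by estimated fragments and the lowest after GSR by summed FPKM, at 19.1 ± 0.797 and 15.5 ± 0.713 FPKM (-0.28 by both). SRXN1, which repairs overoxidized peroxiredoxins, stood at 97.5 and 92.8 FPKM (-0.07), and PRDX6 at 90.5 and 87.6 FPKM (-0.05), with overlapping intervals for PRDX6. From annotated transcripts alone SRXN1 and PRDX6 turned to 0.61 and 1.13, since assembled transcripts with the same introns held 36.9 and 51.0 FPKM in the control file. Thus 2 members of the thioredoxin cycle, TXN and PRDX1, were above 0 while their reductase was below it.

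All 5 genes of NADPH supply had intervals apart with the knockdown library above, by both measures. Among all genes 25.9% did by summed FPKM and 24.6% by estimated fragments. The class median was 0.26 (0.27 by estimated fragments). PGD, 6-phosphogluconate dehydrogenase, makes NADPH in the pentose phosphate pathway and was the most abundant in the control, at 349 ± 3.74 and 386.5 ± 3.91 FPKM (log2 ratio 0.15). TKT, transketolase of the same pathway, stood at 309 ± 3.32 and 396 ± 3.72 FPKM, the highest log2 ratio of the class (0.36). TALDO1, transaldolase, stood at 212 ± 3.74 and 242 ± 6.12 FPKM (0.19). ME1, the cytosolic malic enzyme, stood at 13.1 ± 0.654 and 15.8 ± 0.575 FPKM (0.26). IDH1, the cytosolic isocitrate dehydrogenase, stood at 63.8 ± 1.45 and 79.2 ± 1.98 FPKM (0.31). The class sum was 947 FPKM in the control and 1119 with knockdown, a log2 ratio of 0.24.

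The value of IDH1 depends on an assembled transcript of 11 exons that was present in the knockdown file alone, at 38.4 FPKM beside 40.8 FPKM of the annotated transcript of 10 exons. From the annotated one alone, the log2 ratio was -0.63. TALDO1 also turned, to -0.28, from annotated transcripts alone, since an assembled transcript with the same introns held 66.9 FPKM in the knockdown file. PGD and TKT each had a single intron chain above 0, the same in both files.

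Among 11 other genes of NADPH metabolism, which all passed the filter, 11 had a log2 ratio below 0. Intervals lay apart for 0 higher (25.9% of all genes) and 6 lower (25.7%). MTHFD2, a mitochondrial folate enzyme, was the most abundant of the 11 in the control and fell past the rule of size, at 80.6 ± 2.49 and 49.0 ± 1.3 FPKM (-0.71), but its log2 ratio by estimated fragments was -0.34, short of the rule. The mitochondrial forms ME2 (23.7 and 21.7 FPKM) and IDH2 (23.3 and 22.5 FPKM) had log2 ratios of -0.13 and -0.05, beside 0.26 and 0.31 for cytosolic ME1 and IDH1. From its annotated transcript alone IDH1 was at -0.63, so its place in this contrast turned with the transcripts counted.

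NQO1 was the one member past the rule of size by both measures, with or without transcripts that cross into a neighbour. This quinone reductase, a common readout of NRF2 activity, rose from 355 ± 3.22 FPKM in the control to 536 ± 3.93 in the knockdown library (log2 ratio 0.59, bounds 0.57 and 0.62). All of its signal lay in 1 annotated transcript of 2591 bases, at 69743304 to 69760533 of chromosome 16 (minus strand) in the files' coordinates. The rise was just past the limit, which is 0.585 on this scale. It held in each of the 14 alternative ways of processing, between 0.59 and 0.69, and least clearly after rescaling to a median of 0 over all genes, at 0.58508. Many of these settings could not have changed it. With 1 transcript, the same in both files, choices among listed transcripts, the filters and the measure by fragments leave its ratio as it is.

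NQO2, a related reductase that does not use NADPH, stood at 18.9 ± 1.17 and 23.4 ± 1.29 FPKM (log2 ratio 0.29, and 0.26 by estimated fragments). CYP4F11, a fatty acid hydroxylase, stood at 7.71 ± 0.537 and 10.3 ± 0.582 FPKM (0.37), but at -0.07 by estimated fragments. An assembled transcript of 6739 bases, at 2.44 FPKM and with the introns of an annotated one, was present in the control file alone, and reads of this gene may be shared with close relatives of the CYP4F family. The carbonyl reductases CBR1 (83.3 and 80.0 FPKM) and CBR3 (6.09 and 5.94 FPKM) and the epoxide hydrolase EPHX1 (28.9 and 28.1 FPKM) had log2 ratios of -0.06, -0.03 and -0.04, with overlapping intervals. The class thus split in 2, with NQO1, NQO2 and CYP4F11 above 0 by summed FPKM and CBR1, CBR3 and EPHX1 close to 0.

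Conjugation and export genes had a median log2 ratio of 0.20. Intervals lay apart for 6 of 8 higher and 1 lower, against 25.9% and 25.7% of all genes. By both measures 5 were higher and 1 lower, and no share over all genes is set beside these joint counts. ABCC2, a pump for glutathione and glucuronide conjugates, stood at 51.9 ± 0.869 FPKM in the control and 75.8 ± 1.15 with knockdown (0.54, and 0.51 by estimated fragments). The annotated transcript alone stood at 51.9 and 63.9 FPKM. ABCB6, a porphyrin transporter, stood at 7.47 ± 0.431 and 11.5 ± 0.532 FPKM (0.56 by both measures), in 1 transcript that is the same in both files. The related pumps ABCC1 and ABCC3 stood at 20.8 and 23.5 FPKM (0.17) and at 59.7 and 56.8 FPKM (-0.07). Pumps of 1 family thus stood on both sides of 0, except under the scaling without mitochondrial genes.

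GSTP1, a glutathione transferase and the most abundant gene of the class, stood at 359 ± 5.67 and 398 ± 7.57 FPKM (log2 ratio 0.15), but at 0.00 by estimated fragments. A short assembled transcript of 669 bases, at 104 FPKM, was present in the knockdown file alone, and the annotated transcript stood at 359 and 294 FPKM (-0.29). MGST1, a transferase of microsomal membranes, stood at 107 ± 3.17 and 128 ± 3.95 FPKM (0.26), with a second annotated transcript at 26.6 FPKM in the knockdown library and listed at 0 in the control. Without it the log2 ratio of MGST1 was -0.07. UGDH, which makes the sugar donor for glucuronidation, stood at 124 ± 1.71 and 145 ± 1.83 FPKM (0.22 by both measures). GSTM3, a transferase with close copies beside it, stood at 3.8 ± 0.669 and 3.33 ± 0.484 FPKM, for a log2 ratio of -0.15 by sum and 0.26 by estimated fragments. GSTM3 and GSTP1 were thus the genes of this class that differed most between the measures.

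OSGIN1, a stress-response gene and NRF2 target, had the highest log2 ratio of all members. It rose from 8.26 ± 0.575 FPKM in the control to 16.5 ± 1.31 in the knockdown library (0.92, bounds 0.72 and 1.12). By estimated fragments the ratio was 0.52, from 826 and 1242 fragments, and not past 1.5-fold. The annotated transcript of 1940 bases stood at 8.26 and 10.3 FPKM, and a short assembled transcript of 719 bases, present in the knockdown file alone, added 6.2 FPKM. From the annotated transcript alone the ratio was 0.29. OSGIN1 was above 0 by both measures, and its size was not settled. TRIM16L, a shortened relative of the ubiquitin ligase gene TRIM16, stood at 104.7 ± 2.02 and 91.6 ± 1.89 FPKM (-0.19 by both measures). It is a near copy of TRIM16 (75.6 and 72.3 FPKM), so fragments could be split between them.

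**Figure D4:**
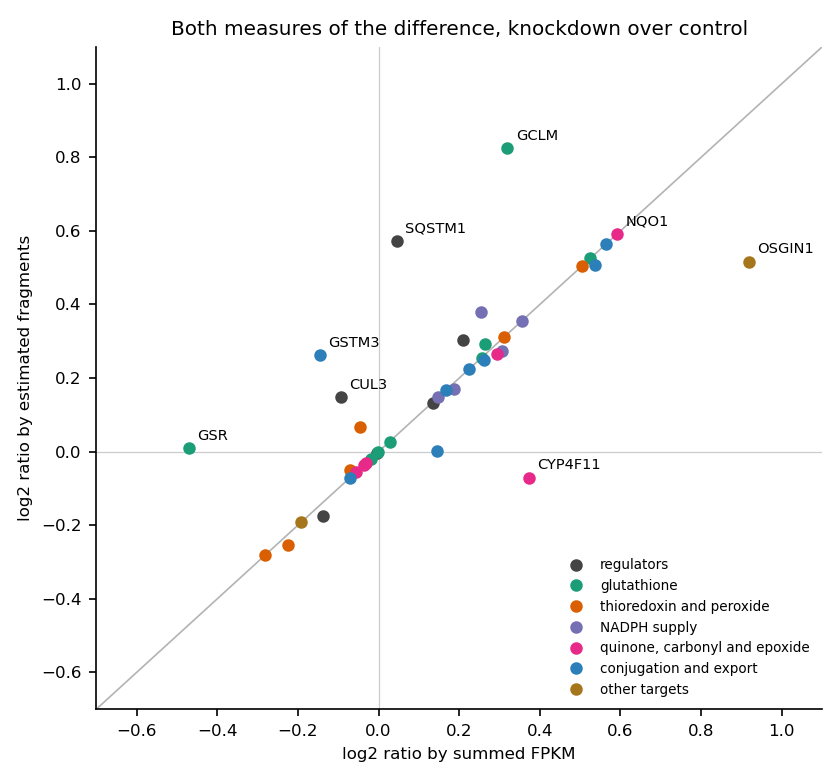
Log2 ratio of each member by summed FPKM (horizontal) against estimated fragments (vertical), with the line of equality, coloured by class. Most members lie on the line, while GCLM and SQSTM1 lie above it and OSGIN1 (0.92 and 0.52) and CYP4F11 (0.37 and -0.07) below it.

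In 6 of the 39 members that both libraries held at 5 FPKM or more (15.4%), a transcript's share of its gene changed by at least 0.3 with intervals apart, against 23.4% of 7122 genes, a lower share than among all genes. The 6 were CUL3, GCLC, GSR, TXNRD1, IDH1 and OSGIN1. In each, an intron chain that was above 0 in 1 file alone was involved. For CUL3 only 1.85 FPKM in the control and 1.96 with knockdown lay in the chain seen in both files, and an assembled transcript of 16 exons held 75% in the control while one of 17 exons held 67.3% in the knockdown library. For GCLC the annotated transcript went from 66.4% to 41.7% of the gene, with a different assembled chain of 16 exons in each file.

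**Figure D5:**
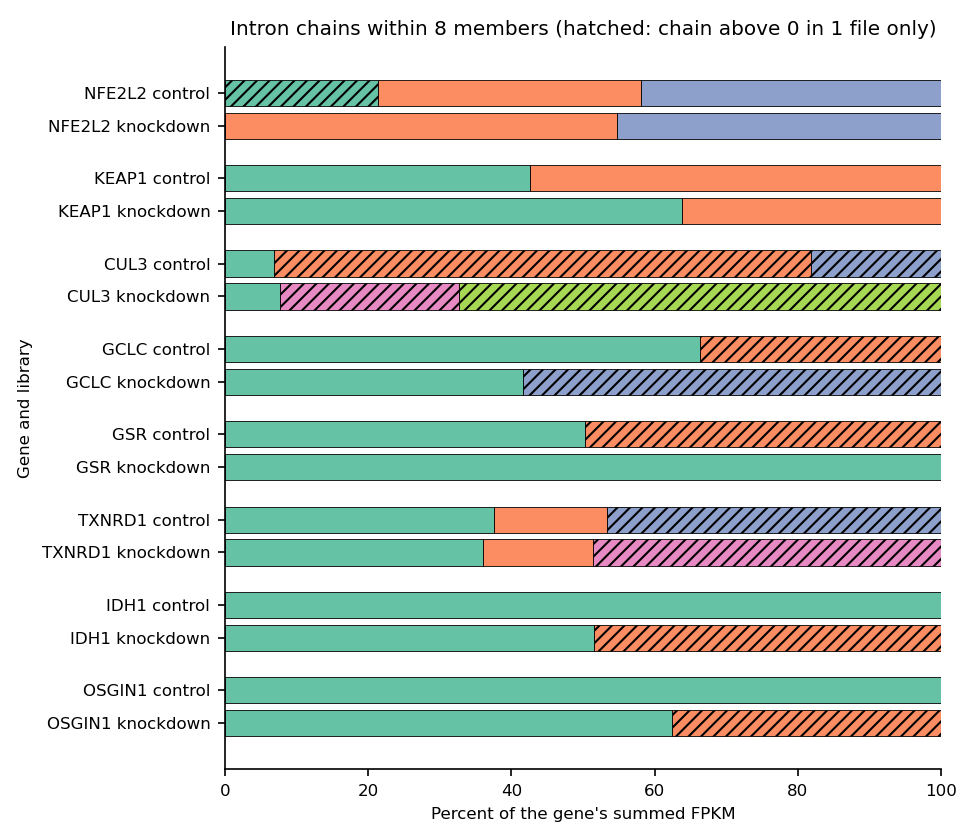
Percent of a gene's summed FPKM in each of its intron chains, in the control and the knockdown library, for NFE2L2, KEAP1 and the 6 members with a change in share. Hatched pieces are chains above 0 in 1 file only; they make up most of CUL3 in both libraries and are absent from KEAP1.

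In wider lists of the pathway the medians lay between -0.13 and 0.03. Of 24 other glutathione and thioredoxin genes, 20 passed the filter, with a median log2 ratio of -0.05. Intervals lay apart for 3 higher (25.9% of all genes) and 6 lower (25.7%), and 0 passed the rule of size. The superoxide dismutase SOD1 (270 ± 8.68 and 307 ± 7.79 FPKM, 0.19) and the peroxiredoxin PRDX5 (172 ± 4.06 and 152 ± 3.79 FPKM, -0.18) were the most abundant in the control, and their intervals lay apart in opposite directions. The peroxiredoxins PRDX3 and PRDX4 had log2 ratios of -0.01 and -0.13, beside 0.51 for PRDX1, and PRDX2 did not pass the filter.

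Of 19 other conjugation and export genes 15 passed the filter, with a median of 0.02 and 0 past the rule of size. With intervals apart, 4 were higher (25.9% of all genes) and 3 lower (25.7%). PTGR1, a reductase of leukotrienes and prostaglandins (196 and 192 FPKM), and GSTO1, an omega-class transferase (56.4 and 57.2 FPKM), were the most abundant, with log2 ratios of -0.03 and 0.02. GSTM1 and GSTT1, which are often deleted in people, were listed at 0 in both libraries.

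Among 22 partners of NRF2 and KEAP1, 20 passed the filter, with a median of 0.03. Intervals lay apart for 9 higher (25.9% of all genes) and 4 lower (25.7%). MAFK, another small MAF partner of NRF2, rose past the rule of size by both measures, from 14.4 ± 0.579 to 23.4 ± 0.745 FPKM (log2 ratio 0.67 by both). RBX1, the RING subunit that works with CUL3, fell past it from 44.0 ± 3.46 to 24.8 ± 1.53 FPKM (-0.80), but its ratio was -0.07 by estimated fragments. The most abundant partners were PARK7, which encodes the redox-sensitive protein DJ-1 (168 and 159 FPKM, -0.08), and TRIM16. The small MAF genes thus differed among themselves, with MAFG at -0.01, MAFK at 0.67 and MAFF (3.27 and 2.3 FPKM) at -0.37.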

How the data were processed

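RNA of 2 libraries was analysed, 1 for each group. Per the submitters' processing notes, CASAVA 1.8.2, TopHat2 2.0.7 and Cufflinks 2.1.1 were used. The deposited files list transcripts, each with an FPKM value and its 95% interval made by the authors, per the labels of the files' attributes. Which genome build they used is not given in the sources; scaffold names are those of GRCh37.

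Annotated transcripts were joined to genes by RefSeq accession or gene identifier (RefSeq table on GRCh38.p14, names only), by accession in GENCODE 29, or by identical lengths of at least 3 introns, which placed TRIM16L. Assembled transcripts with a strand were added where they shared an intron with a gene, 7840 (control) and 7872 (knockdown). FPKM and squared half-widths were summed per gene. The fragment number implied by an interval was whole within 0.02 for 95.4% of 26963 lone transcripts (control) and 95.6% of 33225 (knockdown), which gave the depth and mean fragment lengths of 162 and 165 bases. Intervals cover counting and assignment error only.

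The rules of size are given with the results. All members are accounted for; full values are given for those past the rule, the regulators and the most abundant of each class, and in each wider list for the 2 most abundant and those past the rule. One gene of the wider NADPH list is not reported here, and that list is counted without it. Members, lists and rules were chosen with earlier results of these data known. Python 3.11.15 and pandas 2.3.3 were used, and the calculations were tested on simulated data. Alternatives changed the pseudocount, filter, transcripts counted and scaling.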

Additional observations from a re-analysis of the deposited data

How the results depend on the processing

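No paired analysis was possible because each group has 1 library. The members' median log2 ratio was above 0 in all 14 alternatives and moved by more than the members' median half-width in 1, to 0.24 with FPKM scaled to a common total that leaves mitochondrial genes out. The count of members at least 1.5 times higher was 2 as reported (4.32%). For each count, the share of all genes past the same rule is in brackets. It became 4 with a pseudocount of 0.1 FPKM, NQO1 and OSGIN1 with GPX3 and ABCB6 (6.27%). Under the scaling without mitochondrial genes it was 6, with GPX3, PRDX1, ABCC2 and ABCB6 added (5.74%). Annotated transcripts alone gave 6: SQSTM1, SRXN1, PRDX6, ME1, NQO1 and CYP4F11 (9.44%). The most abundant transcript alone gave 4: NFE2L2, KEAP1, ME1 and NQO1 (9.6%). Estimated fragments without transcripts that cross into another gene gave 1, NQO1 (3.41%). Rescaling to the upper quartile gave 3, with ABCB6 added (4.82%), and joining also by exon bases gave 3, with GSTP1 added (4.13%). Intron chains present in both files alone gave 2, with ME1 in place of OSGIN1 (6.12%). The count lower, 0 as reported (5.4%), became 2 from annotated transcripts alone, GSR and IDH1 (10.2%). It became 1 from intron chains present in both files alone, IDH1 (7.03%). From the most abundant transcript alone it became 2, CUL3 and IDH1 (10.1%). The last of these settings count fewer transcripts; the cause was not tested beyond that. The crossing alternatives were chosen after the data were examined. Over all genes, calls at 1.5-fold numbered 497 higher and 622 lower, and 1008 and 1087 from annotated transcripts alone, 1059 and 1116 from the most abundant transcript alone, 663 and 499 under the scaling without mitochondrial genes, which turns the balance of directions, 214 and 284 among genes at 5 FPKM or more in both libraries, and 220 and 289 with a pseudocount of 5 FPKM. With assembled transcripts also joined by shared exon bases, the log2 ratio of GSTP1 was 1.13. Of the 39 members tested in every setting, 17 had intervals apart with the knockdown library higher in all of them (43.6%, against 14.7% of 6973 genes), and 3, TXNRD1, CAT and TRIM16L, with it lower (7.69%, against 10.8%). These genes all reach 5 FPKM in both libraries but were not matched further by level, and abundant genes have narrow intervals. Members with 1 intron chain, the same in both files, also cannot be moved by settings that choose among listed transcripts. With 1 library per group, no setting replaces a replicate.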
